A study of Rattus norvegicus with 40 samples.

Results

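This account follows 36 genes that encode enzymes and membrane proteins of the lysosome, among 14217 genes with a probeset of 1 gene symbol on the array. They were chosen by name from 37 listed genes and fell into 10 cathepsins and legumain, 10 enzymes of glycan breakdown, 6 enzymes and carriers of lipid breakdown and export, 7 membrane proteins, and 3 proteins lost in neuronal ceroid lipofuscinosis. The remaining listed gene, *Npc1*, was not analysed here. The tissue was the dorsal root ganglion (DRG), which holds the cell bodies of sensory neurons, from male Sprague-Dawley rats taken 4 weeks after surgery. In the SNL cohort the left L5 spinal nerve was tightly ligated, and the sham cohort had the same operation with no ligature. The L5 ganglion therefore carried the ligated nerve itself, and the L4 ganglion was its neighbour, with an intact nerve. L4 and L5 DRGs of the operated (ipsilateral) and the other (contralateral) side gave 8 groups of 5 arrays each, 40 arrays in all, with 1 ganglion per array and the same 5 rats on both sides and segments of a cohort. No untouched rats were among these groups, so the sham cohort was the control for the operation.

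Lysosomes are acidic organelles in which proteins, glycans, lipids and nucleic acids are broken down. Their hydrolases are made as precursors and sorted to the organelle, a proton pump keeps the lumen acidic, and a membrane rich in heavily glycosylated proteins shields the rest of the cell. Neurons depend on lysosomes because they cannot dilute undegraded material by dividing, and inherited loss of many of these enzymes gives a storage disease of the nervous system. Phagocytes such as macrophages carry many lysosomes, and they gather in a DRG after nerve injury and clear debris. Many lysosomal genes are expressed by several cell types of the ganglion, and some are typical of certain cells. In whole-tissue RNA a change in the number of cells of a type and a change of RNA per cell cannot be told apart.

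Many lysosomal genes carry an E-box, CACGTG, near their start site, a letter pattern that factors of the TFEB, TFE3 and MITF family bind, most strongly as TCACGTGA. Both patterns read the same on either strand. They were searched in the RefSeq promoters (GRCr8, 250 bases before to 50 after the start), which were matched for 30 of the 36 genes. CACGTG was in 6 of these 30 windows (20%), against 2148 of 33469 promoters (6.42%), and TCACGTGA in 3 of 30 (10%), against 260 of 33469 (0.777%). Windows with CACGTG are shown with 10 bases on each side, 5′ to 3′ along the gene's strand and the match in capitals, because these genes' values are described next and they differ in their response.
*Ctsd*, chr1:206968816-206968841, minus strand, within TCACGTGA: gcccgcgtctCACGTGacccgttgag
*Cd63*, chr7:1921944-1921969, plus strand: gggcagcggcCACGTGgcctgtccag
*Glb1*, chr8:122963608-122963633, plus strand: gctccggagtCACGTGgcctgcagag
*Gaa*, chr10:105028278-105028303, plus strand: gcccacaaacCACGTGacccacgctg
*Mcoln1*, chr12:6358252-6358277, plus strand, within TCACGTGA: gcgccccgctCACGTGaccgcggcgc
*Lamp1*, chr16:83075113-83075138, minus strand, within TCACGTGA: accctcggctCACGTGaccggcgggc
*Ctsd* and *Mcoln1* each held a further CACGTG, and *Lamp1* held 5 in all. A match is a description of these letters and not evidence of binding, and the 24 genes without a match lack the letters in this window only.

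Values are MAS 5 signals, a linear measure of probeset brightness, and comparisons used log2(signal + 16) in limma with p-values adjusted over 31042 probesets. A gene is called higher or lower where that adjusted p is below 0.05. Differences are ipsilateral minus contralateral on this log2 scale, given ± SE, and signals are given ± SD with n = 5 arrays. Whether replicate rats were dissected or hybridised in batches is not given. The 10 SNL L5 arrays carry another series of array titles than the other 30, and titles within a series run group after group, so that array order and group cannot be told apart. The side comparisons stay within a series. The median signal of an array was higher ipsilaterally in each of the 4 side comparisons, with no overlap between sides (exact permutation test, two-sided, p = 0.00794 in each, the smallest that 5 against 5 unpaired arrays allow). Its means were 43.1 against 37.0 in SNL L5, 54.4 against 49.4 in SNL L4, 36.2 against 29.0 in sham L5 and 37.3 against 31.7 in sham L4. The median difference of all probesets was accordingly 0.12, 0.07, 0.06 and 0.06. The log2 ratio of the GAPDH 3′ to 5′ probesets, a sign of RNA integrity, was also higher ipsilaterally in SNL L5 (1.61 against 0.965), SNL L4 (2.35 against 1.40) and sham L4 (1.72 against 1.29), each with exact permutation p = 0.00794, and 1.11 against 1.01 in sham L5 (p = 0.175). An alternative scaling that sets all array medians equal altered many counts, which are given beside the main ones. The part of these array measures in the results was not tested.

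In the L5 DRG with the ligated nerve, lysosomal genes were mostly higher than on the other side. Of the 36 genes, 23 were called higher (63.9%) and 2 lower (5.56%), where 30.3% of all probesets were called higher and 16.8% lower. Among the 21004 probesets as bright as these genes the shares were 37.0% and 23.4%. The median difference was 0.28, against 0.12 over all probesets. The sides did not overlap for 19 genes that were higher and 2 that were lower, where the shares over all probesets were 20.8% and 13.1%. With equal array medians 16 genes were higher and 9 lower, where 16.8% of all probesets were higher and 24.4% lower. By that scaling *Arsb*, *Ctsl*, *Ctsz*, *Gaa*, *Npc2*, *Ppt1* and *Tpp1* were no longer called higher. For 10 genes (*Ctsc*, *Ctsh*, *Ctss*, *Hexa*, *Gusb*, *Fuca1*, *Npc2*, *Cd63*, *Laptm5* and *Grn*) the 5 SNL L5 ipsilateral arrays lay above all 35 other arrays of the study, which held for 3.7% of all probesets. *Lipa* was the 1 gene for which they lay below all others, which held for 2.83%.

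**Figure D1:**
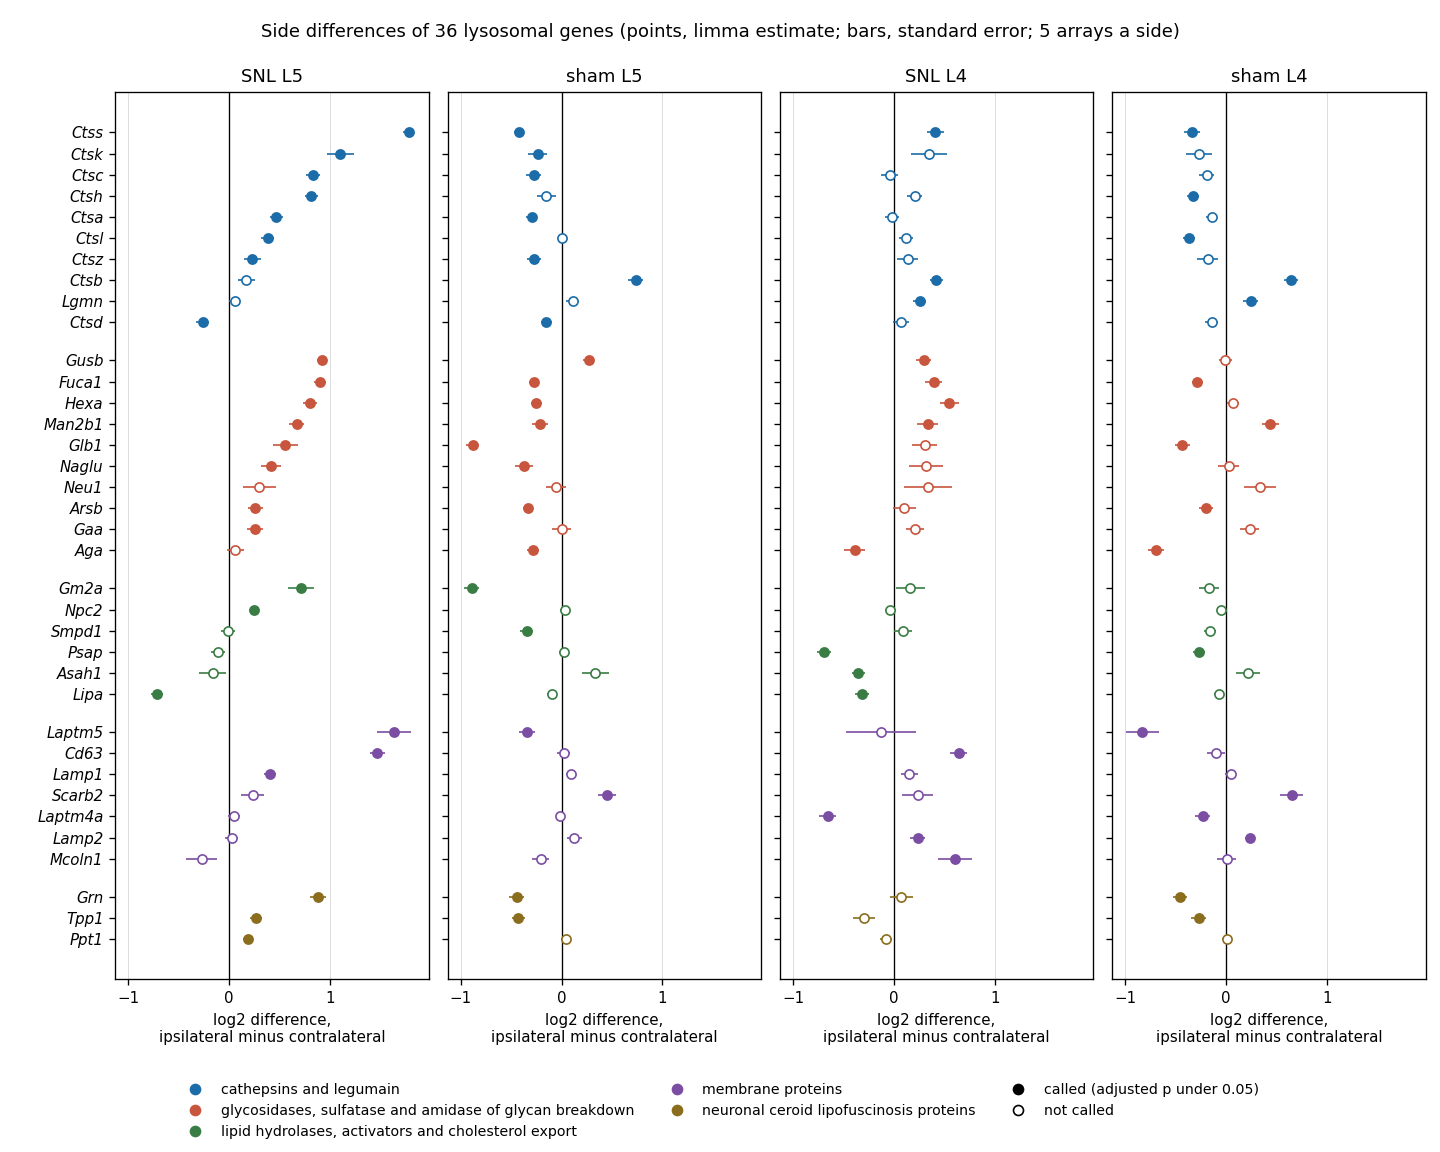
Ipsilateral minus contralateral differences of the 36 lysosomal genes on the log2(signal + 16) scale, with 1 point per gene and SE bars in each of the 4 side comparisons, and filled points for genes called by limma. In SNL L5, 23 genes were called higher and 2 lower (16 and 9 with equal array medians), and in sham L5 3 were called higher and 18 lower (2 and 31 with equal array medians). Over all probesets the shares were 30.3% and 16.8% in SNL L5 and 31.1% and 19.3% in sham L5. With equal array medians these shares were 16.8% and 24.4%, and 19.6% and 41.6%.

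Cathepsins are the proteases of the lysosome, and 7 of the 10 genes of this group were higher in SNL L5 and 1 was lower (8 and 1 after quantile normalization, 5 and 2 with equal array medians). After quantile normalization 21.3% of all probesets were higher and 19.8% lower in SNL L5. Cathepsin S, a cysteine protease that is typical of macrophages and microglia and remains active at neutral pH, showed the largest difference of all 36 genes. *Ctss* read 747, 729, 772, 732 and 730.0 on the ipsilateral arrays of rats 4, 8, 9, 18 and 48, and 233, 190.4, 203, 196 and 202 on their contralateral arrays. The sides were far apart, with a difference of 1.78 ± 0.05 (adjusted p = 5.84e-14), or 3.44-fold. Cathepsin K, a collagen-degrading protease known from osteoclasts, was dim, with 78.1, 57.4, 44.3, 46.3 and 49.2 against 10.6, 21.1, 15.3, 21.8 and 15.7. Each ipsilateral array exceeded each contralateral one, and the difference was 1.10 ± 0.14 (adjusted p = 3.51e-06). Cathepsin C, which activates granule serine proteases, read 277, 299.8, 298, 281 and 266 ipsilaterally and 148, 133, 158, 149 and 181 contralaterally, a difference of 0.83 ± 0.07 (adjusted p = 2.9e-08). A further *Ctsc* probeset gave 1.11. The aminopeptidase cathepsin H read 758, 691, 725, 673 and 629.5 against 338, 377, 433, 388 and 411, a difference of 0.81 ± 0.07 (adjusted p = 1.93e-08). Again the sides did not meet for either gene.

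Other members of the group moved less or not detectably. *Ctsa*, the protective protein that stabilises β-galactosidase and neuraminidase, had a mean of 366 ± 20.6 against 261 ± 20.6, a difference of 0.47 ± 0.06 (adjusted p = 5.99e-06). *Ctsl*, a broad endopeptidase, differed by 0.38 ± 0.07 (adjusted p = 0.000123), but its further probeset gave -0.29 and was called lower (adjusted p = 0.00119), so that the direction of *Ctsl* depended on the probeset. *Ctsz*, a carboxypeptidase, differed by 0.23 ± 0.09 (adjusted p = 0.0367) with overlapping sides, and the call was lost without each of 5 arrays (0.18 to 0.22, adjusted p from 0.0746 to 0.105), which were the contralateral arrays of rats 4 and 9 and the ipsilateral arrays of rats 9, 18 and 48. Cathepsin D, the main aspartic protease of the lysosome and abundant in neurons, was lower, with 196, 174, 198, 174 and 209 against 235, 209, 248, 228 and 233 and a difference of -0.26 ± 0.06 (adjusted p = 0.0028). *Ctsb*, which read 3129 ± 285 against 2795 ± 379.6, differed by 0.17 ± 0.09 (adjusted p = 0.116) and was not called. Legumain (*Lgmn*), an asparaginyl endopeptidase that processes cathepsins, differed by 0.05 ± 0.05 (adjusted p = 0.417), and by -0.16 with equal array medians.

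**Figure D2:**
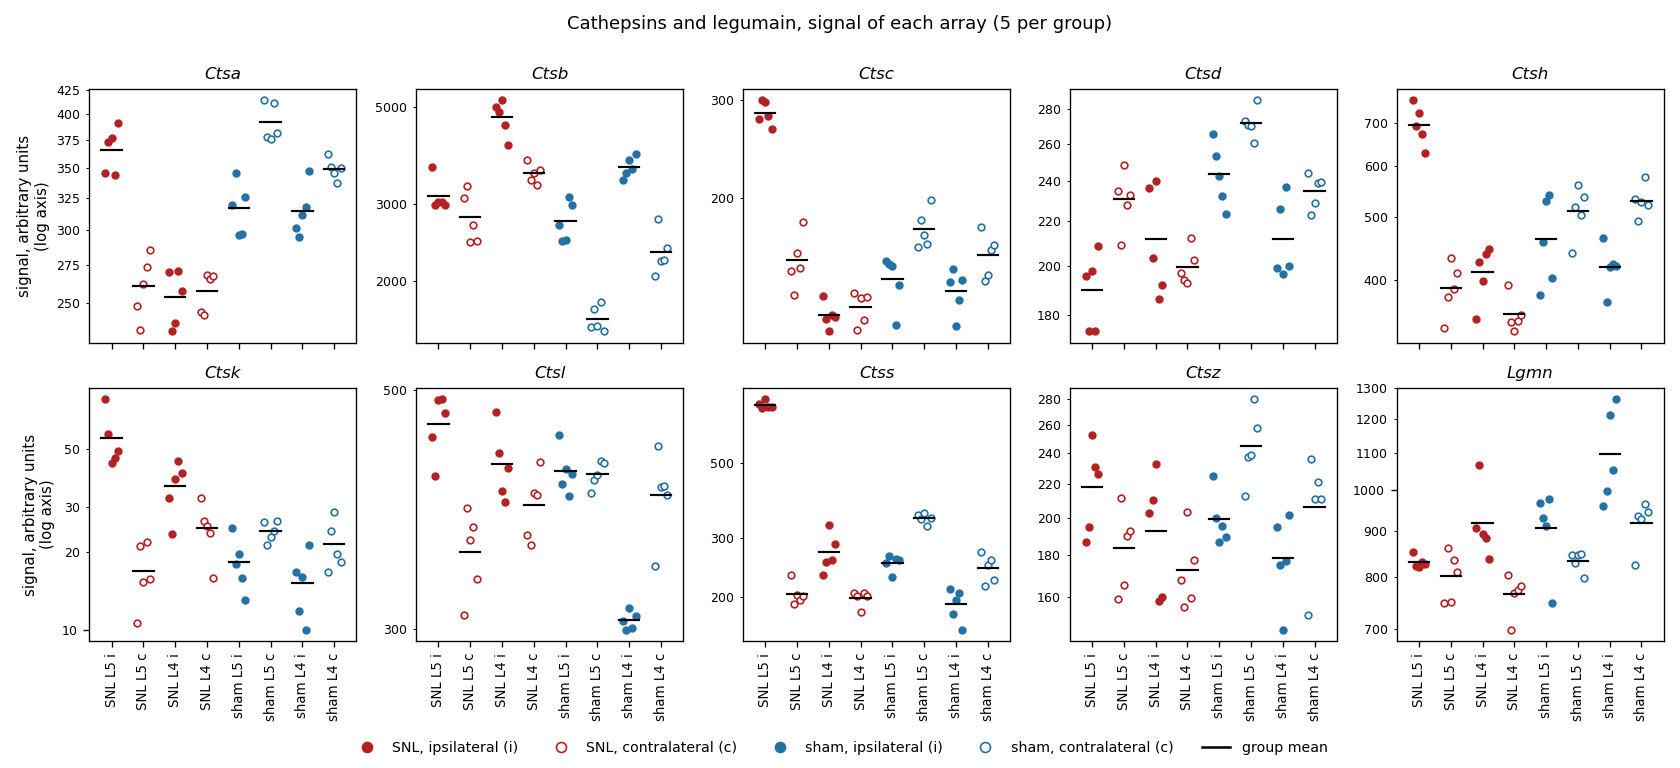
Signals of cathepsin genes and legumain on a log axis, with 1 point per array and a bar at the mean of the 5 arrays of each of the 8 groups. *Ctss* was higher ipsilaterally in SNL L5 (742 ± 18.2 against 205 ± 16.4) and lower ipsilaterally in sham L5 (253 ± 14.1 against 343 ± 11.7), while *Ctsb* was higher ipsilaterally in both sham segments (2745 ± 296 against 1639 ± 114 at L5, a call lost after quantile normalization).

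Most genes in the class of enzymes that take glycans apart were higher in SNL L5. Of 10 genes, 8 were higher and none was lower (6 and 0 with equal array medians), and the median difference was 0.49. β-Glucuronidase (*Gusb*), which trims glycosaminoglycans, read 317, 325, 330.0, 339 and 319 against 157, 161, 165, 172 and 169, a difference of 0.92 ± 0.05 (adjusted p = 1.07e-10). α-L-Fucosidase (*Fuca1*) read 379.8, 385, 430.3, 427 and 420.3 against 195, 221, 206, 214 and 223, and its difference was 0.90 ± 0.06 (adjusted p = 7.06e-10). *Hexa*, the α subunit of β-hexosaminidase, which is missing in Tay-Sachs disease, read 499.7, 542, 517, 533 and 500.2 against 316, 316, 315, 256 and 254, a difference of 0.80 ± 0.07 (adjusted p = 2.97e-08). Each of these 3 genes rose by 1.74- to 1.89-fold, and their sides were far apart. The α-mannosidase gene *Man2b1* differed by 0.67 ± 0.08 (adjusted p = 1.29e-06) with no overlap, and its further probeset gave 0.25 and was not called. β-Galactosidase (*Glb1*) read 69.1, 118, 105, 109 and 106 against 63.5, 44, 65.4, 73.9 and 71.6, a difference of 0.56 ± 0.13 (adjusted p = 0.00146), and the low ipsilateral array of rat 4 lay among the contralateral ones. *Naglu*, an enzyme of heparan sulfate breakdown, differed by 0.42 ± 0.10 (adjusted p = 0.00227), and the sulfatase *Arsb* by 0.26 ± 0.07 (adjusted p = 0.00928), both with overlapping sides. The acid α-glucosidase gene *Gaa*, which clears glycogen, differed by 0.25 ± 0.08 (adjusted p = 0.0131), and the mean of its probesets gave -0.0199. The sialidase *Neu1* was among the dimmest genes (21.9 ± 9.13 against 14.2 ± 3.5) and was called in none of the 4 side comparisons. *Aga*, an amidase that frees glycans from asparagine, differed by 0.06 ± 0.08 (adjusted p = 0.577).

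The lipid genes moved in both directions. In SNL L5, 2 of 6 were higher and 1 lower (1 and 4 with equal array medians), and their median was -0.06. Lysosomal acid lipase (*Lipa*), which releases cholesterol from its esters, fell, with 245, 233, 228, 216 and 249 against 375, 381, 452, 390.3 and 379. No ipsilateral array reached the contralateral range, and the difference was -0.71 ± 0.06 (adjusted p = 3.43e-08). *Gm2a*, the activator that presents GM2 ganglioside to β-hexosaminidase, rose, with 147, 82.9, 93.3, 111 and 102 against 58.2, 70.8, 72.3, 51.4 and 42.6 and a difference of 0.71 ± 0.13 (adjusted p = 0.000253). *Npc2*, a soluble carrier that hands cholesterol to the membrane for export, was a bright gene and differed by 0.24 ± 0.05 (adjusted p = 0.000269), from 994 ± 11.1 to 1179 ± 37.1 (not called with equal array medians). Prosaposin (*Psap*), the precursor of the saposins, differed by -0.11 ± 0.07 (adjusted p = 0.208), and the sphingomyelinase gene *Smpd1* by -0.01 ± 0.07 (adjusted p = 0.886). The ceramidase gene *Asah1* differed by -0.16 ± 0.13 (adjusted p = 0.332), and its contralateral arrays spanned 665 to 1340.5. Its further probeset was called lower, with -0.36 (adjusted p = 0.000846).

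Among the 7 membrane proteins, 3 rose in SNL L5 and none fell (3 and 3 with equal array medians). CD63, a tetraspanin of late endosomes, lysosomes and secreted vesicles, was bright on every array and read 2494, 2069, 2374, 2454 and 2229 against 979.6, 799, 718, 809 and 852. The difference was 1.47 ± 0.07 (adjusted p = 3.58e-11), or 2.77-fold. LAPTM5, a lysosomal membrane protein of blood-derived cells, read 115, 99.5, 93.3, 125 and 89.5 against 7.14, 38.5, 26.1, 19.9 and 29.1, a difference of 1.63 ± 0.17 (adjusted p = 5.16e-07). A further *Laptm5* probeset gave 0.64 and was also called higher. *Laptm4a*, its relative with a wide expression, read 541 ± 42 against 521 ± 28.4 and differed by 0.05 ± 0.06 (adjusted p = 0.502), or -0.16 with equal array medians. *Lamp1*, one of the 2 major glycoproteins of the lysosomal membrane, differed by 0.40 ± 0.06 (adjusted p = 3.42e-05) on its brightest probeset, while its other 2 probesets gave -0.47 (adjusted p = 0.00519, called lower) and -0.042 (not called), and their mean gave -0.036. *Lamp2*, the other, differed by 0.02 ± 0.07 (adjusted p = 0.8), or -0.19 with equal array medians. The receptor *Scarb2*, which carries β-glucocerebrosidase to the lysosome, differed by 0.23 ± 0.11 (adjusted p = 0.0981), and the calcium channel *Mcoln1* by -0.27 ± 0.16 (adjusted p = 0.164). Of the 6 genes shown above with CACGTG near their start, *Cd63*, *Glb1*, *Gaa* and *Lamp1* were thus called higher in SNL L5, the last 2 by the brightest probeset only, *Ctsd* was lower and *Mcoln1* was not called.

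Of the proteins whose loss gives neuronal ceroid lipofuscinosis, a storage disease of neurons, 3 formed a class here that does not cover all of them. These 3 were each higher in SNL L5 (1 of 3 with equal array medians). *Ctsd*, placed with the cathepsins, was lower. Progranulin (*Grn*), a secreted and lysosomal protein, read 403, 409, 429, 493 and 507 against 226, 239, 238, 204 and 274, a difference of 0.88 ± 0.08 (adjusted p = 5.63e-08), and the sides were far apart. The peptidase *Tpp1* read 168, 162, 153, 158 and 145 against 129, 131, 127, 119 and 131 and differed by 0.27 ± 0.06 (adjusted p = 0.00127). The thioesterase *Ppt1* differed by 0.19 ± 0.05 (adjusted p = 0.00349), or -0.025 with equal array medians. Both had sides that did not overlap.

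**Figure D3:**
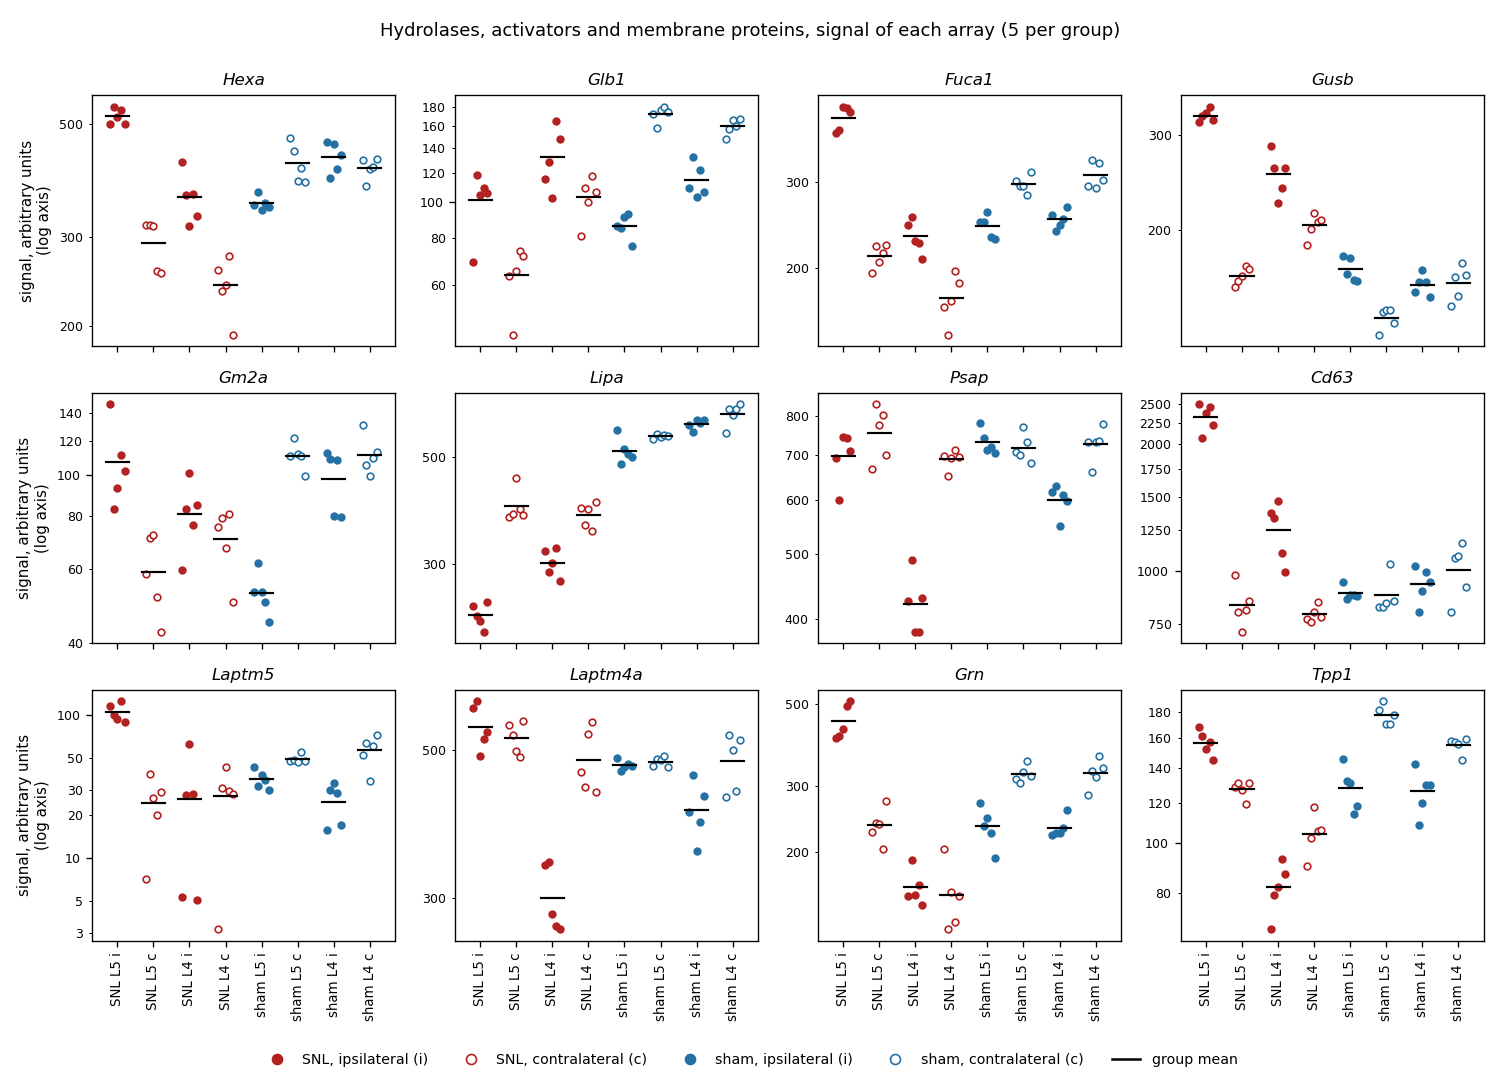
Signals of 12 further lysosomal genes on log axes, with 1 point per array and a bar at the mean of the 5 arrays of each of the 8 groups. *Cd63* was higher ipsilaterally in SNL L5 (2324 ± 175 against 832 ± 95.9) and SNL L4 (1256 ± 199 against 792 ± 35.1), *Lipa* was lower ipsilaterally in both, and *Glb1* and *Gm2a* were lower ipsilaterally in sham L5.

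In the sham cohort the L5 DRGs differed between sides too, in the other direction for many genes. In sham L5, 3 of the 36 genes were called higher (8.33%) and 18 lower (50%), where 31.1% of all probesets were higher and 19.3% lower. Sides did not overlap for 3 higher and 14 lower genes, where the shares over all probesets were 22% and 12.2%. The median difference was -0.18, against 0.06 over all probesets, and -0.12 after quantile normalization, which called 2 higher and 14 lower. With equal array medians 2 genes were higher and 31 lower, where 19.6% and 41.6% of all probesets were called. *Gm2a* read 52.8, 62, 52.9, 50.1 and 44.9 on the ipsilateral arrays of rats 1, 14, 17, 22 and 23, and 111, 122, 112, 111 and 99.2 on the contralateral arrays. *Glb1* read 86.5, 85.1, 91, 92.9 and 76.2 against 172, 158, 177, 181 and 174. Both were lower with sides far apart, and the differences were -0.89 ± 0.07 (adjusted p = 2.33e-07) and -0.88 ± 0.06 (adjusted p = 2.87e-08). *Ctss* was lower as well, with 252, 265, 229, 259.7 and 257 against 351, 340.4, 356, 325 and 342 and a difference of -0.42 ± 0.05 (adjusted p = 9.26e-06). *Grn* differed by -0.45 ± 0.07 (adjusted p = 0.00016), *Tpp1* by -0.43 ± 0.06 (adjusted p = 6.33e-05) and *Laptm5* by -0.35 ± 0.08 (adjusted p = 0.00267). The call of *Laptm5* was lost with the mean of its probesets, in 1 fit over all groups and by the methods' t-test. Of the 23 genes higher in SNL L5, 15 were lower in sham L5, among them *Arsb*, *Ctsa*, *Ctsc*, *Ctsk*, *Fuca1*, *Hexa* and *Naglu*. How often all probesets showed this pair of calls was not counted. *Smpd1* (-0.35 ± 0.06, adjusted p = 0.000411) and *Aga* (-0.28 ± 0.06, adjusted p = 0.00155) were lower in sham L5 without a call in SNL L5. After quantile normalization *Aga*, *Ctsc*, *Ctsd*, *Ctsz*, *Fuca1* and *Man2b1* were no longer called lower, and of these only *Fuca1* was called by the methods' t-test.

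A smaller set in the sham L5 DRGs was higher ipsilaterally. *Ctsb*, an abundant cysteine protease, read 2683, 2463, 2477, 3116 and 2986 against 1564, 1728, 1576, 1792 and 1536, a difference of 0.73 ± 0.07 (adjusted p = 1.31e-06) that was not called after quantile normalization. *Scarb2* differed by 0.45 ± 0.09 (adjusted p = 0.000776), and *Gusb* by 0.27 ± 0.05 (adjusted p = 0.000757), or -0.017 with equal array medians. *Ctsd* differed by -0.15 ± 0.05 (adjusted p = 0.027), but by 0.0027 after quantile normalization, and with the rat as a block *Ctsd* and *Ctsk* were not called. *Man2b1* was lower by its brightest probeset (-0.22 ± 0.08, adjusted p = 0.0355) and higher by the other (0.42, adjusted p = 0.00175). *Cd63* (0.02 ± 0.06), *Npc2* (0.04 ± 0.05), *Lamp1* (0.10 ± 0.05) and *Ppt1* (0.04 ± 0.04) were not called, and each was below 0 with equal array medians.

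In sham L4 the counts were 5 higher (13.9%) and 12 lower (33.3%) of 36, where 17.3% and 9.85% of all probesets were called. Sides did not overlap for 4 higher and 10 lower genes (11.9% and 6.31% of all probesets). With equal array medians 3 were called higher and 25 lower (10.2% and 27.6% of all probesets). *Laptm5* read 15.7, 29.8, 33.3, 28.3 and 17.1 against 52.7, 63.4, 34.7, 60.4 and 72.1, a difference of -0.83 ± 0.16 (adjusted p = 0.00131). *Aga* read 213, 189, 198, 209 and 233 against 284, 333, 367, 364 and 393, a difference of -0.69 ± 0.08 (adjusted p = 1.45e-05). Both genes were lower with no overlap. *Ctsb* was again higher, with 3405, 3521, 3774, 3606 and 3899 against 2049.9, 2767, 2225, 2229 and 2374 (0.65 ± 0.07, adjusted p = 6.52e-06, not called after quantile normalization), and so was *Scarb2* (0.65 ± 0.11, adjusted p = 0.000652). *Man2b1* was higher by both probesets (0.44 and 0.73). The other lower genes were *Grn* (-0.46), *Glb1* (-0.43), *Ctsl* (-0.37), *Ctss* (-0.34), *Ctsh* (-0.33), *Fuca1* (-0.28), *Tpp1* (-0.27), *Psap* (-0.27), *Laptm4a* (-0.23) and *Arsb* (-0.20, not called with the rat as a block), and *Lgmn* and *Lamp2* were higher, each by 0.24, though not with equal array medians. After quantile normalization 4 genes were higher and 9 lower (9.03% and 9.04% of all probesets), and *Arsb*, *Ctss*, *Fuca1*, *Laptm4a*, *Tpp1* and *Lgmn* lost their call, as *Ctsb* did. Of the 36 genes, 8 were lower in both sham segments and 2, *Ctsb* and *Scarb2*, were higher in both. The share of all probesets with the same call in both was not counted.

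In SNL L4, the segment beside the ligated nerve, fewer lysosomal genes moved. Of the 36, 10 were higher (27.8%) and 5 lower (13.9%), where 10.1% and 9.01% of all probesets were called, and sides did not overlap for 7 and 5 (7.63% and 7.38%). The median difference was 0.16, against 0.07 over all probesets, and with equal array medians 5 genes were higher and 7 lower (5.11% and 13.5% of all probesets). *Cd63* read 1375, 1341, 1468, 1103 and 995 ipsilaterally and 772, 757, 802, 848 and 779.8 contralaterally, with no overlap and a difference of 0.64 ± 0.09 (adjusted p = 3.79e-05). *Hexa* differed by 0.55 ± 0.09 (adjusted p = 0.000366), *Ctss* by 0.41 ± 0.09 (adjusted p = 0.00235) and *Fuca1* by 0.40 ± 0.09 (adjusted p = 0.00336), each also with sides apart. *Gusb* and *Man2b1* were the other genes called higher in both SNL segments, with 0.29 and 0.34 in L4 (neither called with equal array medians). *Ctsb* read 4989, 4861, 5168, 4534 and 4078 against 3787, 3396, 3522, 3309 and 3588, a difference of 0.42 ± 0.06 (adjusted p = 0.000142). *Ctsb*, *Lgmn*, *Lamp2* and *Mcoln1* were called higher in L4 and not in L5, the last 3 not with equal array medians. *Mcoln1* differed by 0.61 ± 0.17 (adjusted p = 0.0155) with overlapping sides, and the ipsilateral array of rat 9 was far above the rest (312, against a group mean of 191).

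Of the 5 genes that fell in SNL L4, 3 belonged to the lipid group. *Psap* read 425, 488, 383, 382 and 429.9 against 697, 652, 692, 712 and 696, and its sides were far apart, with a difference of -0.69 ± 0.07 (adjusted p = 1.09e-06). *Laptm4a* read 336, 339.9, 284, 273 and 269 against 462, 439, 528, 549 and 433, a difference of -0.66 ± 0.09 (adjusted p = 2.65e-05). *Asah1* differed by -0.35 ± 0.07 (adjusted p = 0.00112), and its further probeset by -0.66 (adjusted p = 0.000184). *Lipa* read 319, 288, 301, 324 and 276 against 392, 362, 391, 352 and 403 and fell in both SNL segments, here with a difference of -0.32 ± 0.07 (adjusted p = 0.00238). *Aga* differed by -0.39 ± 0.10 (adjusted p = 0.0121). *Grn* (0.08 ± 0.12), *Laptm5* (-0.13 ± 0.34) and *Ctsc* (-0.04 ± 0.09), which rose in SNL L5, were not called in SNL L4. No gene was called higher in SNL L5 and lower in SNL L4, and 17 of the 23 genes higher in SNL L5 were not called in SNL L4. These patterns were not counted over all probesets.

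Whether a side difference itself differed between cohorts or segments was tested as a difference of differences over 20 arrays. At L5, the SNL minus sham difference was called higher for 23 genes and lower for 2, where 20.9% and 22.3% of all probesets were called, with a median of 0.44 against -0.04 (25 and 2 genes with equal array medians, and 24.8% and 20.2% of all probesets). The largest were *Ctss* (2.20 ± 0.07, adjusted p = 2.86e-18), *Laptm5* (1.98 ± 0.21, adjusted p = 1.33e-08), *Gm2a* (1.60 ± 0.16, adjusted p = 7.13e-09), *Cd63* (1.45 ± 0.10, adjusted p = 8.91e-12), *Glb1* (1.44 ± 0.15, adjusted p = 9.27e-09), *Ctsk* (1.34 ± 0.17, adjusted p = 3.44e-07) and *Grn* (1.33 ± 0.11, adjusted p = 3.39e-10). The lower genes were *Lipa* (-0.62 ± 0.08, adjusted p = 2.67e-07) and *Ctsb* (-0.57 ± 0.12, adjusted p = 0.000288), of which *Ctsb* was not called after quantile normalization. For *Gm2a* and *Glb1* the value was made up of a rise in SNL and a fall in sham (0.71 and -0.89 for *Gm2a*). For *Cd63* nearly all of the value lay in SNL by the main scaling (1.47 and 0.02, the latter -0.29 with equal array medians). This comparison runs across the array title series, and series and cohort cannot be told apart at L5. At L4, where all arrays share a series, 9 genes were higher and 4 lower (5.72% and 8.28% of all probesets), with a median of 0.23 against -0.03. With equal array medians 14 were higher and 2 lower (8.48% and 6.13% of all probesets), and after quantile normalization 9 and 2 (5.14% and 7.24%). By the main scaling *Ctss* (0.75 ± 0.12, adjusted p = 8.05e-05), *Cd63* (0.74 ± 0.14, adjusted p = 0.000308), *Glb1* (0.74 ± 0.15, adjusted p = 0.000747) and *Fuca1* (0.68 ± 0.10, adjusted p = 3.06e-05) were the highest, and *Psap*, *Asah1*, *Laptm4a* and *Lipa* were the lower ones. Of the lower ones, *Asah1* and *Lipa* were not called after quantile normalization, and *Laptm4a* and *Lipa* were not called with equal array medians. *Lipa* (-0.25) and *Gusb* (0.30) lay near the threshold, and their calls were lost without any 1 of 10 and 14 of the 20 arrays (-0.25 to -0.22 and 0.26 to 0.31). All 9 genes called higher at L4 were also called higher at L5, a pattern not counted over all probesets. The 2 sham side comparisons enter these values, so they are not independent of the sham results.

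Between the segments of the SNL rats, the L5 difference exceeded the L4 difference for 16 genes and was below it for 3 (11.1% and 8.08% of all probesets), with a median of 0.26 against 0.04 (13 and 5 genes with equal array medians). *Laptm5* (1.76 ± 0.42, adjusted p = 0.00307), *Ctss* (1.37 ± 0.10, adjusted p = 5.78e-11), *Ctsc* (0.87 ± 0.10, adjusted p = 2.91e-07), *Cd63* (0.83 ± 0.12, adjusted p = 9.68e-06) and *Grn* (0.80 ± 0.14, adjusted p = 0.000133) led the first set. *Laptm4a* (0.71 ± 0.11, adjusted p = 1.51e-05) and *Psap* (0.58 ± 0.10, adjusted p = 7.58e-05) were in it with a fall in L4 and no call in L5. *Mcoln1* (-0.88 ± 0.25, adjusted p = 0.0127), *Lipa* (-0.40 ± 0.09, adjusted p = 0.0018) and *Ctsd* (-0.33 ± 0.10, adjusted p = 0.0227) made up the second. This comparison also runs across the title series.

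Other genes of the lysosome were read from lists made up by function. For comparison, 30.3% of all probesets were higher and 16.8% lower in SNL L5, and 10.1% and 9.01% in SNL L4. In sham L5 these shares were 31.1% and 19.3%, and in sham L4 17.3% and 9.85%. With equal array medians they were, in the same order, 16.8% and 24.4%, 5.11% and 13.5%, 19.6% and 41.6%, and 10.2% and 27.6%. Of 23 further hydrolases and related enzymes, 14 were higher and 3 lower in SNL L5 (11 and 6 with equal array medians). The phospholipase *Pla2g15* (1.15), the iduronidase *Idua* (0.81) and the nuclease *Dnase2* (0.80) rose, while the α-galactosidase gene *Gla*, which is mutated in Fabry disease, fell (-1.14). Of 20 further membrane proteins, 10 were higher and 2 lower (7 and 4 with equal array medians), led by the macrophage sialomucin *Cd68* (1.91), *Sidt2* (1.22) and the endolysosomal channels *Tpcn1* (1.03) and *Tpcn2* (0.83). The subunits of the proton pump, the V-ATPase, went the other way, with 2 of 18 higher and 11 lower in SNL L5 (1 and 14 with equal array medians) and a median of -0.24. *Atp6v1b2* (-0.59), *Atp6v0e2* (-0.55) and *Atp6v0b* (-0.52) fell, and *Atp6v0a1* rose (0.70). In SNL L4 none of the 18 was higher and 8 were lower (0 and 13 with equal array medians), led by *Atp6v1c1* (-0.68). In sham L5, 2 of the 23 hydrolases were higher and 8 lower, 1 of the 20 membrane proteins was higher and 11 lower, and 4 of the 18 pump subunits were higher and 6 lower. None of these was higher in sham L5 with equal array medians, and 17, 16 and 14 were lower. In SNL L4 the counts were 2 and 3 for the hydrolases (1 and 5 with equal array medians) and 1 and 2 for the membrane proteins under both scalings. In sham L4 they were 4 and 1 for the hydrolases, 1 and 0 for the membrane proteins and 2 and 3 for the pump. With equal array medians they were 3 and 9, 0 and 11, and 0 and 12, and the share of all probesets called lower rose too (27.6%, against 9.85%).

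The list of the TFEB family and of regulators of mTORC1 at the lysosome gave 7 higher and 4 lower of 18 in SNL L5 (3 and 8 with equal array medians), 2 and 2 in SNL L4 (1 and 3 by that scaling), 4 and 10 in sham L5 (1 and 12), and 2 and 5 in sham L4 (0 and 11). The shares of all probesets given with the lists above apply to the counts here too. *Tfe3* (0.36) and *Mitf* (0.47) were higher in SNL L5 (*Tfe3* not with equal array medians), and *Tfeb* differed by 0.21 and was not called. In sham L5 *Tfe3* (-0.22) and *Mitf* (-0.29) were lower (*Tfe3* not after quantile normalization). Genes that sort proteins to lysosomes gave 4 higher and 5 lower of 24 in SNL L5, and autophagy genes gave 3 and 4 of 19, where 30.3% and 16.8% of all probesets were called. With equal array medians the counts were 1 and 11 for sorting and 2 and 9 for autophagy, and all probesets moved to 16.8% higher and 24.4% lower. Of 7 cystatins and other inhibitors that bind cathepsins and related proteases, 3 were higher and 2 lower (3 and 3 with equal array medians), with *A2m* (2.30) and *Serpina3n* (1.11) higher and the cysteine protease inhibitors *Cst3* (-0.57) and *Cstb* (-0.55) lower. The counts in the other comparisons were 2 and 3 (SNL L4), 3 and 13 (sham L5) and 3 and 4 (sham L4) for sorting, 2 and 4, 0 and 10, and 2 and 3 for autophagy, and 1 and 3, 2 and 1, and 1 and 3 for the inhibitors. Equal array medians gave 0 and 6, 1 and 21, and 1 and 10 for sorting, 1 and 7, 0 and 17, and 1 and 15 for autophagy, and 1 and 3, 0 and 4, and 1 and 4 for the inhibitors.

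**Figure D4:**
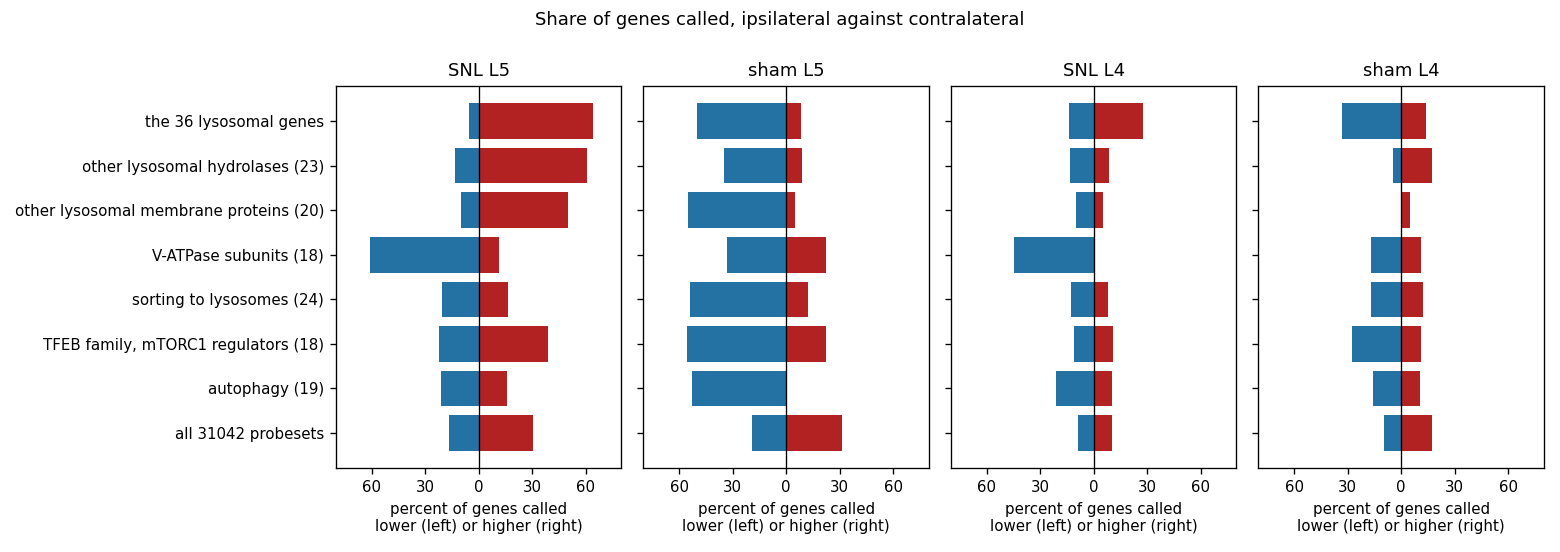
Percent of genes called higher (right of 0) and lower (left of 0) in each of the 4 side comparisons, for the 36 lysosomal genes, 6 further lists and all probesets. In SNL L5, 63.9% of the 36 genes were higher, against 30.3% of all probesets, while 11 of 18 V-ATPase subunits were lower (14 with equal array medians). Of all probesets, 16.8% were lower (24.4% with equal array medians).

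Markers of macrophages, cells rich in lysosomes, were counted in the same comparisons. The shares of all probesets given with the lists above apply here too, at 30.3% higher and 16.8% lower in SNL L5 and 31.1% and 19.3% in sham L5. Of 22 macrophage markers on the array, 17 were higher and none lower in SNL L5 under each scaling, including *Adgre1* (1.95), *Cd68* (1.91), *Csf1r* (1.59), *Aif1* (1.37) and *Mrc1* (1.19), while *Cd163* (0.28) and *Itgam* (0.18) were not called. Their summed signal was 2776 to 2988 ipsilaterally and 958 to 988 contralaterally, a ratio of 2.97 (exact permutation test, two-sided, p = 0.00794). In SNL L4 4 were higher and 1 lower (2 and 1 with equal array medians), and the sums were 1100 to 1328 against 967 to 1109 (ratio 1.20, exact permutation p = 0.0159). In sham L5 3 were higher and 12 lower (1 and 13 by that scaling), and the sums were 1022 to 1208 against 1323 to 1425 (ratio 0.834, exact permutation p = 0.00794). In sham L4 1 was higher and 6 lower (1 and 8), and the sums were 876 to 1010 against 1008 to 1206 (ratio 0.854, exact permutation p = 0.0159). The summed signal of the 36 lysosomal genes had ratios of 1.31, 1.13, 1.04 and 1.05 in the same order (exact permutation p = 0.00794, 0.00794, 0.0238 and 0.0159), so that the macrophage sum and the lysosomal sum differed in direction in both sham segments, where the very bright *Ctsb* was higher ipsilaterally. With equal array medians, a setting added for these sums after the data were seen, the lysosomal ratios were 1.12, 1.02, 0.836 and 0.891 and the macrophage ratios 2.55, 1.09, 0.670 and 0.727, so that both sums were lower ipsilaterally in the sham segments (exact permutation p = 0.00794 for each of the 4 values). In SNL L4 neither sum then passed the test (exact permutation p = 0.5 and 0.0714). The part of macrophages in the lysosomal values was not tested.

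Markers of other cells were counted as well. Of all probesets, 30.3% were higher and 16.8% lower in SNL L5, 10.1% and 9.01% in SNL L4, and 31.1% and 19.3% in sham L5. With equal array medians the shares were 16.8% and 24.4%, 5.11% and 13.5%, and 19.6% and 41.6%. Neuronal markers were present on every array, with a summed signal of 17 genes between 15927 and 37972. Of these, 2 were higher and 13 lower in SNL L5 (0 and 14 with equal array medians), and the sum had an ipsilateral to contralateral ratio of 0.677, against 1.13 in SNL L4, 1.43 in sham L5 and 1.44 in sham L4 (exact permutation p = 0.00794 in each). These ratios with equal array medians were 0.581, 1.02, 1.15 and 1.23, and that of SNL L4 no longer passed the test (exact permutation p = 0.468). In sham L5 the neuronal calls were 10 higher and 2 lower, but 6 and 5 with equal array medians and 1 and 3 after quantile normalization. Of 10 fibroblast markers, 10 were higher in SNL L5 and 5 in SNL L4 (10 and 3 with equal array medians), with summed ratios of 2.80 and 1.42, and in sham L5 1 was higher and 4 lower (0 and 7 by that scaling). The counts in SNL L5 were 6 higher and 1 lower of 8 for Schwann cells, 4 and 2 of 7 for satellite glia, 5 and 1 of 11 for endothelium, 3 and 0 of 9 for T and B cells, and 0 and 7 of 7 for neutrophils and red blood cells. Of 9 genes that phagocytes induce when they take up debris, 5 were higher and 1 lower. The share of T and B cell markers called higher lay near that of all probesets. Equal array medians gave SNL L5 counts of 3 and 1 for Schwann cells, 3 and 2 for satellite glia, 3 and 2 for endothelium, 1 and 1 for T and B cells and 4 and 3 for the genes of debris uptake, with neutrophils and red blood cells at 0 and 7 again. In sham L5 Schwann cell markers gave 2 higher and 6 lower (1 and 6 with equal array medians), and satellite glia 3 and 2 (0 and 4). Endothelium gave 1 and 3 there (0 and 7), and T and B cells 4 and 0 (2 and 0). Neutrophils and red blood cells gave 6 and 1 (4 and 1), and the genes of debris uptake 1 and 2 (1 and 6). The part of these cells in the lysosomal values was not tested.

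**Figure D5:**
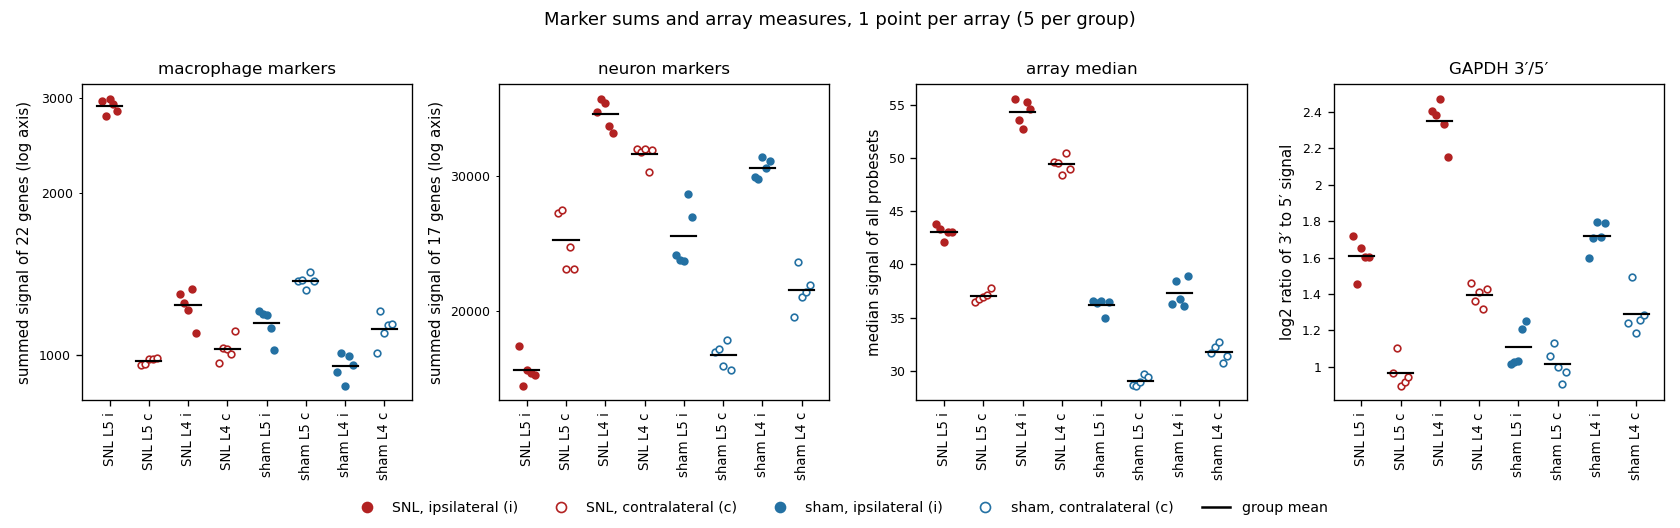
Summed signal of 22 macrophage markers and of 17 neuronal markers, median signal of all probesets, and log2 ratio of the GAPDH 3′ to 5′ probesets, with 1 point per array and a bar at the mean of each of the 8 groups. The macrophage sum of the 5 SNL L5 ipsilateral arrays lay between 2776 and 2988, above every other array, and the array median was higher ipsilaterally in all 4 side comparisons.

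Further probesets, available for 11 of the 36 genes as 12 pairs with the brightest one, gave the same direction in 6 pairs in SNL L5, 7 in SNL L4, 6 in sham L5 and 6 in sham L4. Both probesets of a pair were called in the same direction in 2, 1, 2 and 1 pairs, and in opposite directions in 2 pairs in SNL L5 (*Ctsl* and *Lamp1*) and 1 in sham L5 (*Man2b1*).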

How the data were processed

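Total RNA of individual ganglia was hybridised to Affymetrix Rat Genome 230 2.0 arrays, 1 ganglion per array. The deposited values are the MAS 5 signal intensity of each probeset on a linear scale, as the authors made them, with replicates not pooled, the version of MAS being unstated. Their mean, leaving out 2% of the values at each end, was 99.99 on every array. From these, log2(signal + 16) was compared with limma 3.58.1 in R 4.3.3 (lmFit, eBayes with an intensity trend), with Benjamini-Hochberg adjustment over 31042 probesets after 57 control probesets were left out. The threshold for a call was an adjusted p of 0.05. Fold changes are on the log2(signal + 16) scale, which understates the change of dim genes. Scripts were first tested on simulated data.

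Gene names came from the platform annotation supplied for this work, in which 20826 probesets had 1 symbol, 436 several and 9780 none listed, and symbols may be old. Each gene was represented by its brightest probeset by mean log2(signal + 16) over the 40 arrays. The genes and lists were chosen with earlier results of these data known. All lysosomal genes could be named. Of the other lists, up to 4 called genes per comparison were named, those with the largest change whose sides did not overlap, with Aif1, Csf1r, Itgam, Cd68, Cd163 and Mrc1 of macrophages and Tfeb, Tfe3 and Mitf named whether called or not. The number of arrays, 5 per group, limits the precision.

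The labels number the rats, and 2 sides with 1 number came from 1 rat, so a fit with the rat as a block was among the alternatives. The exact permutation tests of array measures and marker sums did not pair the sides of a rat. The deviations of a rat's sides from their group means correlated between -0.145 and 0.095 over 20 pairs. The other alternatives were other offsets (1 and 64), quantile normalization, equal array medians, no dim probesets, no intensity trend, 1 fit over all groups, the mean of all probesets of a gene, the methods' t-test at p below 0.001, and leaving out each array. No pair of arrays was identical in most of its values. Promoter windows and coordinates came from RefSeq (GRCr8).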

Additional observations from a re-analysis of the deposited data

Results flagged for a closer look

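A single array stood apart from the other 4 of its group for 20 of 288 combinations of gene and group, where chance gives about 1 in 20. In SNL L5 ipsilateral these were *Ctsb* of rat 4 (3638), *Glb1* of rat 4 (69.1), *Naglu* of rat 8 (42.7) and *Gaa* of rat 18 (226). In SNL L5 contralateral they were *Npc2* of rat 8 (1013) and *Lipa* of rat 9 (452). In SNL L4 they were *Npc2* (951) and *Mcoln1* (312) of rat 9 and *Lamp2* of rat 8 (747) ipsilaterally, and *Ctss* of rat 9 (181) contralaterally. In sham L5 they were *Cd63* of rat 1 (945) ipsilaterally, and *Smpd1* (380.5), *Lamp1* (867), *Cd63* (1042) and *Laptm5* (55.1) of rat 22 contralaterally. In sham L4 they were *Mcoln1* of rat 17 (219.5) and *Grn* of rat 23 (259) ipsilaterally, and *Lgmn* (824) and *Asah1* (954) of rat 1 and *Tpp1* of rat 22 (145) contralaterally. By rat, 5 were of rat 22 and 4 of rat 9, and none was of rats 14 or 48.

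The side difference of SNL L5 lay above that of sham L5, by limma on the difference itself, for *Ctss* (2.20), *Laptm5* (1.98), *Gm2a* (1.60), *Cd63* (1.45), *Glb1* (1.44), *Ctsk* (1.34), *Grn* (1.33), *Fuca1* (1.17), *Ctsc* (1.10), *Hexa* (1.05), *Ctsh* (0.97), *Man2b1* (0.88), *Naglu* (0.79), *Ctsa* (0.76), *Tpp1* (0.70), *Gusb* (0.65), *Arsb* (0.58), *Ctsz* (0.50), *Ctsl* (0.37), *Aga* (0.34), *Smpd1* (0.33), *Lamp1* (0.30) and *Npc2* (0.21), all as differences of log2 differences. It lay below for *Lipa* (-0.62) and *Ctsb* (-0.57). *Ctsl* and *Lamp1* were not called with the mean of all probesets of a gene, and *Ctsb* was not called after quantile normalization.

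At L4 the side difference in SNL lay above that in sham for *Ctss* (0.75), *Cd63* (0.74), *Glb1* (0.74), *Fuca1* (0.68), *Ctsh* (0.54), *Grn* (0.53), *Ctsl* (0.49), *Hexa* (0.48) and *Gusb* (0.30), all as differences of log2 differences. It lay below for *Asah1* (-0.57), *Psap* (-0.43), *Laptm4a* (-0.42) and *Lipa* (-0.25). *Ctsl* was not called with the mean of all probesets of a gene. After quantile normalization *Grn*, *Gusb*, *Asah1* and *Lipa* were not called, and with equal array medians *Laptm4a* and *Lipa* were not.

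Within the SNL cohort the side difference at L5 lay above that at L4 for *Laptm5* (1.76), *Ctss* (1.37), *Ctsc* (0.87), *Cd63* (0.83), *Grn* (0.80), *Ctsk* (0.75), *Laptm4a* (0.71), *Gusb* (0.63), *Ctsh* (0.61), *Psap* (0.58), *Tpp1* (0.57), *Fuca1* (0.50), *Ctsa* (0.49), *Aga* (0.45), *Npc2* (0.28) and *Ppt1* (0.27), all as differences of log2 differences. It lay below for *Mcoln1* (-0.88), *Lipa* (-0.40) and *Ctsd* (-0.33). With equal array medians *Aga*, *Npc2* and *Ppt1* were not called.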

How the results depend on the processing

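The SNL L5 median of 0.28 was 0.36 and 0.22 with offsets of 1 and 64, 0.12 with equal array medians, 0.24 with the mean of all probesets, and 0.27 to 0.32 when 1 array was left out. The SNL L4 median of 0.16 was 0.12 with offset 64, 0.033 with equal medians, 0.089 with all probesets and 0.14 to 0.20 without 1 array. The sham L5 median of -0.18 was -0.13 with offset 64, -0.12 after quantile normalization, -0.45 with equal medians, -0.14 with all probesets, and -0.21 to -0.13 without 1 array. That of sham L4, -0.14, was -0.072 after quantile normalization and -0.36 with equal medians. With equal medians 9 genes were lower in SNL L5, 5 higher in SNL L4, 31 lower in sham L5, and 3 higher and 25 lower in sham L4, while 14 were higher in SNL minus sham at L4. The shares of all probesets by this scaling stand beside these counts in the results above. The methods' t-test, called at p below 0.001, gave 17 higher and 1 lower in SNL L5, 3 and 3 in SNL L4, 3 and 9 in sham L5, and 3 and 7 in sham L4. By this t-test 13.5% of all probesets were higher and 10.3% lower in SNL L5, and 3.52% and 4.56% in SNL L4. In sham L5 the shares were 15.3% and 6.93%, and in sham L4 6.67% and 2.98%. Without the intensity trend 6 were higher in SNL L4 (8.62% of all probesets). The mean of all probesets gave 5 higher in sham L5 and 3 in sham L4 (22.6% and 11.5% of all 14217 genes). In SNL minus sham at L4, 2 were lower after quantile normalization, with equal medians or without the trend, and in L5 minus L4, 5 were lower with either scaling.

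Directions turned with equal medians for *Lgmn* (-0.16), *Lamp2* (-0.19), *Laptm4a* (-0.16) and *Ppt1* (-0.025) in SNL L5, for *Ctsl* (-0.30), *Lgmn* (-0.20), *Gusb* (-0.017), *Psap* (-0.28), *Npc2* (-0.28), *Lamp1* (-0.21), *Cd63* (-0.29) and *Ppt1* (-0.27) in sham L5, and for *Lamp1* (-0.18) and *Ppt1* (-0.22) in sham L4. They turned for *Ctsd* (0.0027) and *Npc2* (-0.18) in sham L5 after quantile normalization, and with the mean of all probesets for *Gaa* (-0.0199) and *Lamp1* (-0.036) in SNL L5 and *Man2b1* (0.10) in sham L5. The cause was not tested.

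With the replicate block (the rat), which pairs the sides, the counts higher and lower were 23 and 2 in SNL L5, 10 and 5 in SNL L4, 3 and 16 in sham L5, and 6 and 11 in sham L4. Of all probesets, this fit called 29.6% and 16.6% in SNL L5 and 9.50% and 8.77% in SNL L4. In sham L5 it called 29.5% and 17.9%, and in sham L4 17.6% and 10.4%. *Ctsd* and *Ctsk* in sham L5, *Arsb* in sham L4 and *Gusb* and *Lipa* in SNL minus sham at L4 lost their call. Leaving out 1 array turned no called direction. It ended calls in SNL L4 of *Lamp2* (0.19 to 0.24, without contralateral rats 4, 9 and 18 and ipsilateral rats 4, 9, 18 and 48) and *Man2b1* (0.28 to 0.35, without contralateral rats 8, 9, 18 and 48 and ipsilateral rats 8 and 18), in sham L5 of *Ctsd* (-0.15 to -0.12, without contralateral rats 1 and 23 and ipsilateral rats 22 and 23), *Ctsk* (-0.26 to -0.18, without contralateral rats 1, 14, 17, 22 and 23 and ipsilateral rats 14, 17, 22 and 23) and *Man2b1* (-0.21 to -0.16, without contralateral rats 14, 22 and 23 and ipsilateral rats 17 and 23), and in sham L4 of *Arsb* (-0.21 to -0.17, without contralateral rats 1, 17, 22 and 23 and ipsilateral rats 14, 17, 22 and 23), *Laptm4a* (-0.23 to -0.18, without contralateral rats 14, 17 and 23 and ipsilateral rats 1, 17 and 22) and *Lgmn* (0.19 to 0.21, without ipsilateral rats 17 and 23). In SNL L5 it ended that of *Ctsz* (0.18 to 0.22, without contralateral rats 4 and 9 and ipsilateral rats 9, 18 and 48), and in SNL minus sham at L4 those of *Gusb* (0.26 to 0.31, without SNL contralateral rats 4, 8, 18 and 48, SNL ipsilateral rats 4, 8 and 48, sham contralateral rats 14, 22 and 23 and sham ipsilateral rats 1, 14, 22 and 23) and *Lipa* (-0.25 to -0.22, without SNL contralateral rats 4, 9 and 48, SNL ipsilateral rats 8 and 48, sham contralateral rats 1 and 17 and sham ipsilateral rats 17, 22 and 23). Dim genes such as *Neu1*, *Ctsk* and *Laptm5* are limited by their signal over background.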
